A study of Mus musculus with 6 samples.

Results

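Cytosolic ribosomal proteins were followed on 6 mouse arrays of HSC, the hematopoietic stem cells that renew the blood. A probe set, the group of probes that reports 1 transcript, was a member if its 1 gene symbol began with Rpl or Rps and a digit, or was Rpsa, Rplp0, Rplp1 or Rplp2. Kinases of the Rps6k families (6 probe sets) and pseudogenes (2 probe sets) were left out, which gave 218 of the 28815 probe sets on the array, from 63 of the 19935 genes with a probe set of their own. The large subunit held 132 of them in 38 genes and the small subunit 84 in 23 genes. Rps19bp1 and Rps23rg1 matched the rule by name, although the first names a binding partner of a ribosomal protein and the second a retrogene. A further 239 probe sets carried a ribosomal symbol among several and are not named.

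The study compared HSC of C57BL/6 mice lacking Selp (Selp-/-, 3 arrays), which encodes the adhesion receptor P-selectin, with HSC of WT C57BL/6 mice (3 arrays). The arrays are numbered 1 to 3 within each genotype. The sort that gave the HSC and the number of mice are not given in the sources used here, so the spread behind each p-value may be technical rather than between animals. No probe set carried the name Selp, so the genotype labels were not checked by the deleted gene.

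The ribosome reads mRNA with its small subunit and joins amino acids in its large subunit, and each subunit is built from ribosomal RNA and a set of proteins made in near equal amounts. Most ribosomal protein mRNAs begin with a run of pyrimidines, the terminal oligopyrimidine (TOP) tract, through which mTOR signalling sets their translation. HSC are known for low rates of protein synthesis, and loss of 1 copy of several of these genes causes Diamond-Blackfan anaemia in humans, a failure of red cell production.

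Of the member genes, 51 had a promoter in the RefSeq table (assembly GRCm38.p6). The letters CTTTC, as in a TOP tract, lay on the gene's own strand within 25 bases of the start in 25.5% of the member promoters and in 6.60% of all 27018 promoters. On either strand the shares were 35.3% and 12.2%. The letters CCGGAAG, the core bound by ETS factors, lay on either strand of the whole window of 300 bases in 35.3% of the member promoters and in 9.12% of all. The related CTTTT lay on the gene's own strand within 25 bases of the start in 11.8% against 5.20%, and AAGATGG, the core bound by YY1, on either strand of the whole window in 7.84% against 6.48%. The windows below run from 35 bases before the start to 25 bases after it, 5′ to 3′ on the gene's strand, with matches to any of these letters on either strand in capitals. They belong to 5 of the genes that passed a test below, picked with their values known. The same window of Rpl36a, which also passed, held none of these letters on either strand and is not printed.
Rps4x (chrX:102189367-102189426, minus strand): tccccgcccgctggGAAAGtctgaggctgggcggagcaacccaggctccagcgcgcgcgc
Rpl22 (chr4:152325691-152325750, plus strand): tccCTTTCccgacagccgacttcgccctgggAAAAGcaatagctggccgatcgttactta
Rps6 (chr4:86857343-86857402, minus strand): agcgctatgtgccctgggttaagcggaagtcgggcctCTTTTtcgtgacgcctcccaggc
Rpl27a (chr7:109519160-109519219, plus strand): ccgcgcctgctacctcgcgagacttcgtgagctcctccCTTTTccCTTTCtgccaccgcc
Rps27l (chr9:66946051-66946110, plus strand): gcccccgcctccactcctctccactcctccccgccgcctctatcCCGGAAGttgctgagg
Rpl27a held CTTTT and CTTTC close together just after its start. Rps27l, the one of these genes that was higher in the arrays numbered 3, held CCGGAAG. A match is a description of the letters and not a binding site.

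The members were among the brightest features of the arrays. Their median percentile of mean level was 97.6, and 199 of 218 lay above the 90th percentile. Deposited intensities of members reached 21674, against a highest value of 33557 on any probe set. Levels below are background-corrected, quantile-normalised log2 intensities, and a difference of levels is a log2 fold change. Probe sets under the 40th percentile of mean level (8.79) were not tested, which left 17289 probe sets and 216 members of 61 genes. The 2 members left out were Rpl3l, a muscle paralog of Rpl3, and Rpl39l, a testis paralog of Rpl39. Rpl3l read 8.02, 7.94 and 8.17 in Selp-/- HSC and 8.17, 8.07 and 8.18 in WT HSC. Rpl39l averaged 7.75 ± 0.058 in Selp-/- HSC and 7.83 ± 0.31 in WT HSC (SD, n = 3 each). Genotypes overlapped in both. Levels of different probe sets are not set against each other, since probes differ in affinity. Many members report near-identical processed copies too: 18 shared all their values with another member, which left 207 distinct profiles.

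The arrays numbered 3 stood apart from the other 4 in both genotypes. Over all probe sets tested, the deviations from the genotype mean correlated at 0.81 between Selp-/- 3 and WT 3, and at -0.53 to -0.69 between either of them and an array of the other genotype with another number. HSC markers had a lower summed linear level on arrays numbered 3, 18818 to 21754 against 39968 to 49363 on the others, and basophil and mast cell markers a higher one, 48635 to 64647 against 5199 to 6262. Each marker was read at its brightest probe set. Of all 12455 genes read so, 10.2% rose in the arrays numbered 3 and 10.5% fell. Of 13 HSC markers tested, 10 fell in the arrays numbered 3 and 1 rose. All 7 basophil and mast cell markers tested rose, while 5 of the 12 listed lay under the filter. Of the neutrophil markers 9 of 12 rose, of the monocyte and macrophage markers 7 of 10 and of the megakaryocyte markers 3 of 7, and 3 of 7 erythroid markers fell. The basophil and mast cell markers Fcer1a, Gzmb and Tpsb2, and Adgre1 of macrophages, read under the filter level of 8.79 on each of the other 4 arrays. Cxcr2 of neutrophils read under it in Selp-/- 1, Selp-/- 2 and WT 2, and Ccr2 of monocytes in Selp-/- 1 and WT 1. For both, the mean of the other 4 arrays was under the filter level. All of these markers were tested only through the arrays numbered 3, so the filter fixed their rise in part. B lymphoid markers gave 1 higher and 3 lower of 9, T and NK lymphoid markers 1 higher and 1 lower of 5, and endothelial and stromal markers 2 lower of 7. Their part in the ribosomal results was not tested. In bulk samples, fewer cells of a type and less RNA per cell cannot be told apart.

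**Figure D1:**
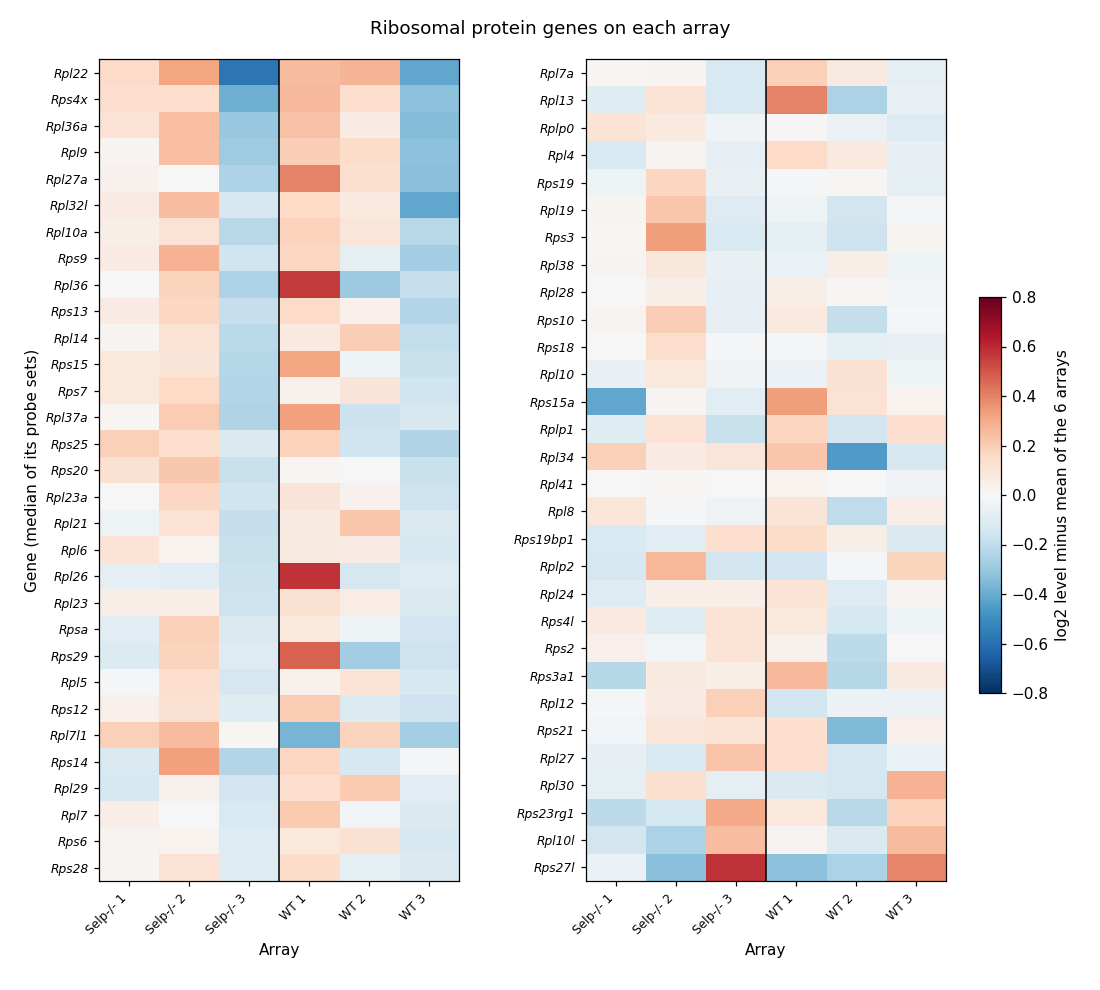
Each cell is the median, over the tested probe sets of a gene, of its log2 level minus its mean over the 6 arrays, with Selp-/- arrays left of WT arrays and genes ordered by their mean on the arrays numbered 3. Blue cells fill most of the columns Selp-/- 3 and WT 3, Rps27l is red in both, and Rpl36, Rpl26 and Rps29 are darkest red in WT 1.

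Ribosomal protein mRNAs did not differ by genotype beyond the spread between arrays. None of the 216 members passed an adjusted p of 0.05 (limma with Benjamini-Hochberg adjustment over all 17289 probe sets), where 0% of all probe sets passed. None had an unadjusted p under 0.05 either, against 122 of all probe sets (0.706%). That limma fit left the differences between array numbers in its spread. With the array number as a replicate block, 0 members passed and 3 had an unadjusted p under 0.05 (1.39%), against 630 of all probe sets (3.64%). The median difference, Selp-/- minus WT, was -0.010 over the members and 0.0054 over all probe sets tested. Differences ran from -0.32 to 0.36, and 209 of 216 lay within 0.2 of 0. The 95% interval lay inside 0.5 either side of 0, a fold of 1.41, for 163 members, and for 201 with the block, so a larger change was outside the interval for most of them.

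Both subunits sat close to 0. The large subunit proteins had a median difference of -0.024, with 40 of 130 above 0 (30.8%). The small subunit proteins had one of 0.034, with 59 of 84 above 0 (70.2%). Of all probe sets tested 51.8% lay above 0, and the subunits were not tested against each other. The direction changed with the array number. The median of Selp-/- minus WT was -0.11 between the arrays numbered 1, with 34 members above 0, and 0.12 between those numbered 2, with 159 above 0. Between those numbered 3 it was 0.0035, with 113 above 0.

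Few members separated the genotypes without overlap. All 3 Selp-/- arrays lay above all 3 WT arrays in 6 members (2.78%, against 2.24% of all probe sets tested), and below them in 2 (0.926%, against 1.97%). The 6 were 2 probe sets each of Rps18 and Rpl19 and 1 each of Rplp0 and Rpl12, and the 2 belonged to Rps2 and Rps15a. Rpl12 is named only for this, with its values known. In all 3 pairs of same-numbered arrays Selp-/- was higher in 15 members (6.94%, against 12.6%) and lower in 27 (12.5%, against 11.2%). Rpl19, a large subunit protein, read 13.79, 13.80 and 13.83 in Selp-/- HSC and 13.69, 13.63 and 13.73 in WT HSC in its probe set of smallest p. The genotypes did not overlap there, yet the difference of 0.12 (SE 0.067, limma adjusted p = 1) did not pass. Rplp0, the base of the stalk that recruits elongation factors, read 13.91, 13.84 and 13.74 in Selp-/- HSC and 13.73, 13.72 and 13.64 in WT HSC. That difference was 0.13 (SE 0.076, limma adjusted p = 1).

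The smallest unadjusted p of any member, 0.0949 in the limma fit, belonged to Rps15a, a small subunit protein. It read 10.26, 10.70 and 10.59 in Selp-/- HSC and 11.01, 10.79 and 10.71 in WT HSC. The genotypes did not overlap, by a narrow gap, and the difference was -0.32 (SE 0.17). Rpl7l1, a paralog of the large subunit gene Rpl7, read 12.03, 12.09 and 11.85 in Selp-/- HSC and 11.47, 12.02 and 11.57 in WT HSC, a difference of 0.31 (SE 0.18). Its genotypes overlapped through WT 2. One probe set of Rps25, a small subunit protein used by some viral internal ribosome entry sites, had the highest difference of all, 0.36 (SE 0.23), through a low WT 2. It read 12.11, 11.92 and 11.88 in Selp-/- HSC and 12.03, 11.12 and 11.66 in WT HSC.

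**Figure D2:**
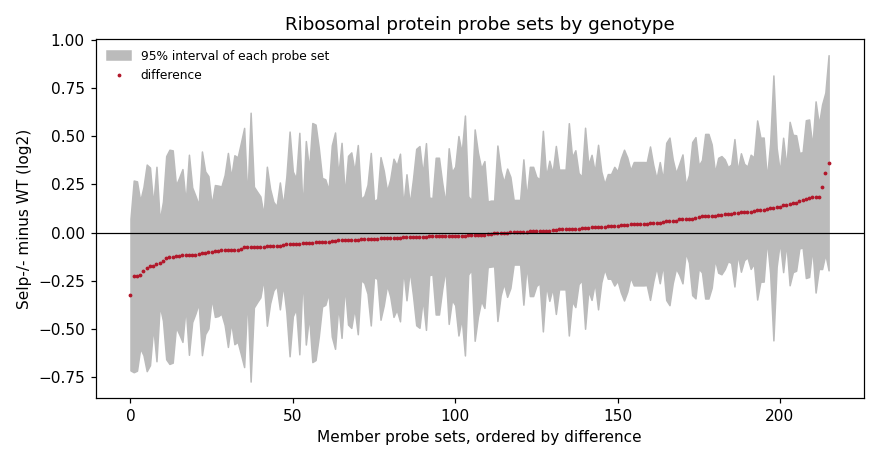
Points give the log2 difference, Selp-/- minus WT, of the 216 tested members in order of size, and the grey band gives the 95% interval of each. The points run from -0.32 to 0.36 and every interval covers 0.

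Genes changed in Diamond-Blackfan anaemia or in the 5q- syndrome of human marrow were called in neither direction by genotype. Of 17 such genes listed, 9 had member probe sets, 30 in all. Their genotype differences ran from -0.23 to 0.14 with a median of 0.0080. Rps19, the gene most often changed in the anaemia, read 11.33, 11.55 and 11.32 in Selp-/- HSC and 11.36, 11.38 and 11.31 in WT HSC, and the genotypes overlapped throughout. Rpl26 read 11.93, 11.90 and 11.82 in Selp-/- HSC and 12.57, 11.86 and 11.89 in WT HSC. Its difference of -0.22 (SE 0.21) rested on WT 1 and was 0.0071 without that array. The stalk proteins and Rpsa, a laminin-binding protein of the small subunit, held 10 probe sets between -0.22 and 0.13, the lowest being a probe set of Rplp1.

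Relative to all probe sets, ribosomal protein mRNAs were lower in the arrays numbered 3 than in those numbered 1 and 2, in both genotypes. Of 216 members, 35 fell (16.2%, against 11.7% of all probe sets tested) and 2 rose (0.926%, against 9.13%) in a limma fit with genotype as a term. The median difference was -0.19 over the members and -0.013 over all probe sets, and 192 members lay below 0 (88.9%, against 52.0%). Within Selp-/- the median was -0.18 and within WT -0.20, against -0.016 over all probe sets in each genotype. In both genotypes 170 members were lower and 12 were higher, and the shares of all probe sets are not given here. Both arrays numbered 3 lay below the other 4 in 98 members (45.4%, against 25.1%) and above them in 3 (1.39%, against 20.1%). With no normalisation the median over all probe sets moved to 0.20 and that over the members to 0.041, so the members were 0.16 below all probe sets on that scale, against 0.18 below them in the normalised values.

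The 35 probe sets that fell belonged to 10 genes, 24 probe sets to the large subunit and 11 to the small. Counting the brightest probe set of each gene, 8 of 61 member genes fell (13.1%, against 10.5% of 12455 genes) and 2 rose (3.28%, against 10.2%). The share that fell was thus near that of all genes, while the median was -0.14, against 0.0078. At an unadjusted p under 0.05, 77 of the 216 members differed in either direction, 35.6%, as did 35.6% of all probe sets. The changes were small, from -0.19 to -0.75. That 35 of 35 lay under all 4 other arrays follows largely from their selection by this contrast. The count shrank most without WT 3 and next most without Selp-/- 3. It was also lower without WT 1, WT 2 or Selp-/- 2, and higher without Selp-/- 1. Not all probe sets called without WT 2 or without Selp-/- 1 were among the 35. Each of these fits left a number with 1 array, and the shares of all probe sets called are not given here. Rpl22 and Rps4x had a call whichever of the 6 arrays was left out, and also with no normalisation. Rpl9 had none without WT 3, Rpl36a and Rpl10a none without WT 3 or without Selp-/- 3, Rpl21 none without Selp-/- 3, and Rpl27a none without any of WT 1, WT 2 and WT 3. Rps15 had a call in 2 of the 6. Rps6 and Rps7 had no call in any of the 6, nor with median centring, with no normalisation or with no filter.

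**Figure D3:**
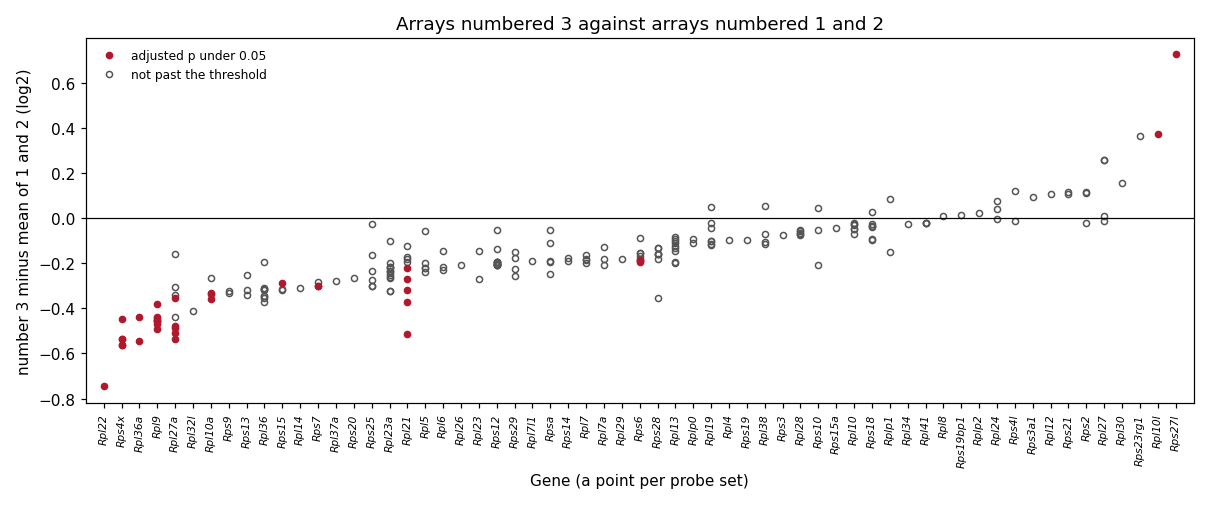
Each point is a tested member, placed over its gene, at its log2 difference between the arrays numbered 3 and the mean of those numbered 1 and 2, and filled points passed an adjusted p of 0.05. The filled points gather at the left in Rpl22, Rps4x, Rpl36a and Rpl9, and Rps27l stands alone at 0.73.

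Rpl22, a large subunit protein needed for the development of alpha-beta T cells in mice, had the largest fall among the members. It read 9.94 in Selp-/- 3 and 10.11 in WT 3, against 10.67 and 10.84 in Selp-/- 1 and 2 and 10.77 and 10.79 in WT 1 and 2. The arrays numbered 3 were lowest by a wide margin, and the fall of 0.75 (SE 0.11, limma adjusted p = 0.00597) was 1.68-fold.

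All 5 probe sets of Rps4x, an X-linked small subunit protein, fell by 0.45 to 0.56. The probe set of smallest p read 12.49 in Selp-/- 3 and 12.60 in WT 3, against 13.06 and 13.05 in Selp-/- 1 and 2 and 13.25 and 13.07 in WT 1 and 2. The arrays numbered 3 did not overlap the others, and the adjusted p values of the 5 ran from 0.00543 to 0.0115 in limma. Rps4l, its paralog, had 2 probe sets with differences of 0.12 and -0.011, neither of which passed.

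All 8 probe sets of Rpl9, a large subunit protein, fell by 0.38 to 0.49. The brightest read 12.87 in Selp-/- 3 and 12.88 in WT 3, against 13.18 and 13.41 in Selp-/- 1 and 2 and 13.36 and 13.29 in WT 1 and 2. The pair of arrays numbered 3 read alike and lay below the rest. Both probe sets of Rpl36a, also X-linked, fell by 0.44 and 0.54. The larger fall was seen at 12.70 in Selp-/- 3 and 12.72 in WT 3, against 13.22 and 13.31 in Selp-/- 1 and 2 and 13.37 and 13.12 in WT 1 and 2. The third X-linked gene, Rpl10, whose protein completes the large subunit late in its assembly, did not pass in any of 6 probe sets, with differences from -0.070 to -0.023.

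In the other 6 genes some probe sets passed and others did not. They were 3 of 4 for Rpl10a, 5 of 9 for Rpl21, 5 of 9 for Rpl27a, 2 of 3 for Rps7, 3 of 8 for Rps6 and 1 of 3 for Rps15. Rpl21 spanned -0.52 to -0.13 over its probe sets, and Rpl27a -0.54 to -0.16, so probe sets of a gene disagreed in size but not in sign. Rps6, the small subunit protein phosphorylated by S6 kinase, had the smallest falls among the calls, 0.19 in each of 3 probe sets, and these calls were lost when any 1 array was left out. Its brightest probe set read 14.08 in Selp-/- 3 and 14.10 in WT 3, against 14.21 and 14.24 in Selp-/- 1 and 2 and 14.31 and 14.33 in WT 1 and 2. The Rpl21 probe set with the largest fall, a large subunit protein, read 12.75 in Selp-/- 3 and 13.05 in WT 3, against 13.27 and 13.45 in Selp-/- 1 and 2 and 13.33 and 13.60 in WT 1 and 2. It fell by 0.52 (limma adjusted p = 0.00682), and the call was lost without Selp-/- 3. The Rpl10a probe set with the largest fall read 13.31 in Selp-/- 3 and 13.27 in WT 3, against 13.60 and 13.64 in Selp-/- 1 and 2 and 13.70 and 13.66 in WT 1 and 2. That fall was 0.36 (limma adjusted p = 0.0130).

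Of the 9 anaemia genes with members, Rps7 was the one with a call, in 2 of the 30 probe sets (6.67%, against 11.7% of all probe sets), and it was lost when any 1 array was left out. Rps7, which is needed to process small subunit RNA, read 12.60 in Selp-/- 3 and 12.66 in WT 3, against 12.90 and 12.99 in Selp-/- 1 and 2 and 12.92 and 12.92 in WT 1 and 2, a fall of 0.30 (limma adjusted p = 0.0437). The 5 probe sets of Rpl5, which with Rpl11 and 5S RNA binds Mdm2 and so raises p53, had differences from -0.24 to -0.055 and none passed. Rps14, the gene lost in the 5q- syndrome, gave -0.18 and -0.19 in its 2 probe sets, and Rps19 gave -0.096, all without a call.

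Genes with many probe sets showed how far single readings of a gene spread. The 13 probe sets of Rpl23a, a large subunit protein at the exit of the peptide tunnel, ran from -0.32 to -0.10, and both arrays numbered 3 lay below the others in 11 of them. The 13 of Rps12, a small subunit protein, ran from -0.21 to -0.054, and the 9 of Rpl13 from -0.20 to -0.085. All of these lay below 0 and none passed. The 7 of Rpl19 ran from -0.12 to 0.049, on both sides of 0. Rpl32l, a member of the large subunit with 1 probe set, just missed the threshold at -0.41 (limma adjusted p = 0.0516), and is named with its value known. The probe sets with several symbols, which were no members, gave 48 lower and 0 higher of 235 tested, with a median of -0.20.

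The 2 members that rose are both paralogs. Rps27l, a paralog of Rps27 that p53 induces, read 12.46 in Selp-/- 3 and 12.27 in WT 3, against 11.83 and 11.55 in Selp-/- 1 and 2 and 11.55 and 11.63 in WT 1 and 2. The arrays numbered 3 were highest, and the difference was 0.73 (SE 0.11, limma adjusted p = 0.00708). Rpl10l, a paralog of Rpl10 used in male germ cells, read 9.15 in Selp-/- 3 and 9.15 in WT 3, against 8.75 and 8.64 in Selp-/- 1 and 2 and 8.92 and 8.78 in WT 1 and 2. In Selp-/- 1 and 2 and WT 2 it read under the filter level of 8.79. It was thus tested only through its values on the arrays numbered 3, so the filter fixed its rise in part. The difference of Rpl10l, 0.37, had a limma adjusted p of 0.0484, and it did not pass when any 1 array was left out. Members with no call ran from -0.44 in a probe set of Rpl27a to 0.36 in Rps23rg1, and Rpl41 gave -0.023 in 3 probe sets of identical values.

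**Figure D4:**
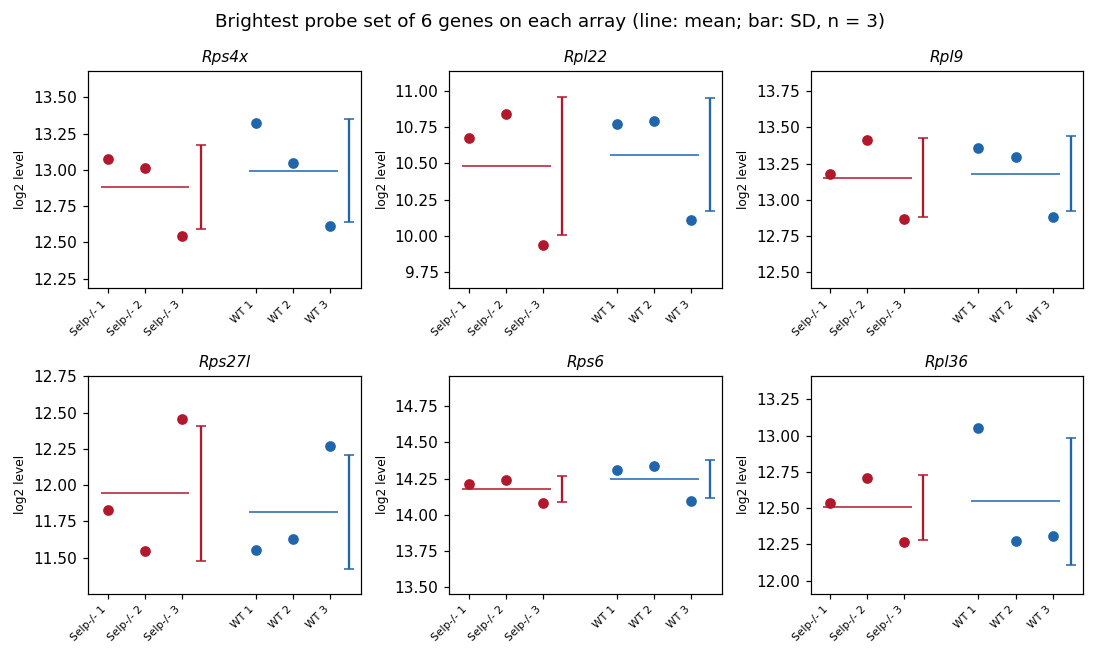
Points give the log2 level of the brightest probe set of 6 genes on each array, Selp-/- left of WT, with the mean as a line and the SD as a bar (n = 3); each panel spans the same log2 range. Rps4x, Rpl22, Rpl9 and Rps6 are lowest and Rps27l is highest on both arrays numbered 3, and Rpl36 is highest in WT 1.

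Genes that work with the ribosome were read in the arrays numbered 3 at the brightest probe set of each gene, where 10.5% of all genes were called lower. Of 14 other TOP transcripts tested, 5 fell (35.7%) and 0 rose, with a median of -0.21. Of 28 translation factors 4 fell (14.3%) and 0 rose, with a median of -0.13, and all 4, Eif4b, Eef2, Pabpc1 and Eef1a1, were also among the 5 TOP transcripts. Eif4b, an initiation factor, fell by 0.67 (limma adjusted p = 0.00481), and Eef2, the translocation factor, by 0.34. Of 41 ribosome biogenesis genes 5 fell (12.2%) and 1 rose, with a median of -0.16, so the share that fell was near that of all genes. Of 17 regulators of ribosome synthesis 4 fell (23.5%) and 0 rose, with a median of -0.12. Myc, a driver of ribosome gene transcription, read 12.16 in Selp-/- 3 and 12.24 in WT 3, against 12.81 and 12.90 in Selp-/- 1 and 2 and 12.84 and 12.79 in WT 1 and 2, a fall of 0.64 (limma adjusted p = 0.00462). Mycn fell by 1.28. The other calls among these regulators were Tsc1 at -0.48 and Rictor at -0.44. Mitochondrial ribosomal proteins, which build a separate ribosome, gave 4 higher and 2 lower (2.82%) of 71 genes, with a median of 0.078. By genotype, the limma adjusted p was 1 for each gene of these lists.

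Between the arrays numbered 2 and those numbered 1, no member passed in limma, where 0.00578% of all probe sets were higher and 0.0463% lower, and 9 members (4.17%) had an unadjusted p under 0.05, against 1376 of all probe sets (7.96%). With no normalisation, 61 members were called lower, but the median over all probe sets was then itself -0.22. The share of all probe sets called at that setting is not given here. The members' median lay 0.031 below that of all probe sets in the quantile-normalised values, 0.11 below it with median centring and 0.15 below it with no normalisation. The median member difference was -0.019, but the genotypes moved opposite ways. It was 0.10 in Selp-/-, with 175 members above 0, and -0.12 in WT, with 169 below 0. WT 1 was the highest array in 99 of 216 members and Selp-/- 2 in 66. The margin was widest in Rpl36, a large subunit protein. Its 9 probe sets lay 0.58 to 0.75 higher in WT 1 than the mean of the other 5 arrays. The brightest read 12.71 and 12.27 in Selp-/- 2 and WT 2, against 12.54 and 13.05 in Selp-/- 1 and WT 1, and 12.27 and 12.31 in Selp-/- 3 and WT 3. Rpl26 lay 0.69 higher in WT 1, and the 4 probe sets of Rps29, a small subunit protein, 0.50 to 0.60. These 3 genes were those with every probe set over 0.5, a margin set with the values known. The smallest p in the upward direction belonged to Rpl10, at 13.89 and 13.90 in Selp-/- 2 and WT 2, against 13.74 and 13.61 in Selp-/- 1 and WT 1, a difference of 0.22 (limma adjusted p = 0.613). In the downward direction it belonged to the Rps25 probe set above, at -0.55 (limma adjusted p = 0.622). Cell type markers differed between numbers 2 and 1 as well. The median was -0.82 over 12 neutrophil markers, with 2 called, and -0.91 over 7 erythroid markers, with 2 called. The other cell type lists had 0 called, with medians from -0.033 (T and NK lymphoid) to 0.34 (B lymphoid). Their part in the ribosomal values was not tested.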

How the data were processed

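Amplified, biotin-labelled RNA of 6 samples was hybridised, per the labels' protocols. The authors deposited linear probe set intensities without a common scale, and MAS5 is the tool listed, with no version, in the submitters' processing notes. The intensities were corrected with normexp (offset 50), put on the log2 scale and quantile normalised in limma 3.58.1 under R 4.3.3. Probe sets under the 40th percentile of mean level were left out. The tests were lmFit and eBayes with a trend, two-sided, with Benjamini-Hochberg adjustment over 17289 probe sets at 0.05. Genotype was fitted alone, and array number with genotype as a term. The code was tested on simulated data.

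Same-numbered arrays deviated together from their genotype means (correlations 0.43, 0.53 and 0.81 for numbers 1, 2 and 3). The numbers in the titles were therefore treated as pairs in the replicate block and in the counts over pairs. The main genotype fit did not use the pairs. Arrays numbered 1 and 2 also deviated together across numbers, at 0.51 for Selp-/- 1 with WT 2 and 0.37 for Selp-/- 2 with WT 1, so these correlations do not tell numbers 1 and 2 apart. Alternatives changed the normalisation, background correction, filter, probe set per gene, pairing and arrays used. Arrays give no depth, and their number limits the precision.

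Gene symbols came from the platform annotation, with RefSeq identifiers. Genes named were, per comparison, the 6 members of smallest p in each direction, the 5 of highest and lowest level, anaemia genes, paralogs, stalk proteins and genes with 3 or more probe sets, and up to 4 genes per other list. Not all are named here, and genes outside the rule are marked. Members and lists were chosen with earlier results of these data known.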

Additional observations from a re-analysis of the deposited data

Results flagged for a closer look

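Members moved opposite ways between the arrays numbered 2 and 1 in the genotypes: the median difference was 0.10 in Selp-/- HSC and -0.12 in WT HSC. Each genotype has 1 array of each number, so this difference was not tested.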

How the results depend on the processing

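The genotype counts stayed at 0 under each alternative, including the replicate block, in which the median difference was -0.010, and the block changed no other call. The array number counts depended on the processing, and the cause was not tested. Some of the alternatives also used fewer arrays or fewer probe sets. With no normalisation 7 members were lower and 6 higher in number 3, and the median was 0.041. In number 2 against 1, 61 were then lower and the median was -0.37. Over all probe sets the medians were 0.20 and -0.22, and the shares called are not given here. With no filter 20 were lower and 1 higher, with the stricter filter 41 and 1, and with median centring 28 and 2. At the brightest probe set of each gene 8 were lower (13.1%, against 10.5% of all genes). For the filters, median centring and the arrays left out, the shares of all probe sets called are not given here. Leaving out each array gave 4 to 40 lower and 1 to 1 higher in number 3, and medians of -0.098 to 0.065 in number 2 against 1. That median was -0.18 with median centring, 0.10 within Selp-/- and -0.12 within WT. Signs turned for Rpl26 by genotype without WT 1 (-0.35 to 0.0071 over the arrays left out), for 2 probe sets of Rpl27 in number 3 without Selp-/- 3 (-0.017 to 0.53), and, with no normalisation in number 2 against 1, for Rpl10 (-0.038, -0.11 and -0.048) and Rpl21 (-0.087, -0.090 and -0.15). Of the values of named members under the alternatives, 390 kept direction and side of the threshold, 10 lost the call, 9 gained one and 9 turned.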
